A study of Mus musculus with 20 samples.

Results

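Hsd3b5 and 9 genes of the growth hormone pathway or under its control were examined in liver and white adipose tissue (WAT) of mice fed a high fat diet (HFD). The other 9 genes were Ghr, Igf1, Igfals, Socs2, Cish, Stat5a, Stat5b, Mup1 and Serpina3k. Their probes were found by gene symbol or by transcript accession, which gave 22 of 41174 probes other than controls for the 10 of 28786 gene names on the array. Each gene was read by its brightest probe over the 20 arrays, and the other 12 probes were kept as a check. Hsd3b5 was selected on its liver difference between the genotypes, and the other genes for their place in the pathway, so the liver values of Hsd3b5 are a description and carry no test.

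All mice were male C57BL/6, aged 7 months, and had been on the 35% fat HFD for 21 weeks. WT(HFD) mice were wild type and CD44KO(HFD) mice lacked CD44, a membrane receptor for hyaluronan. Liver and WAT RNA gave 4 groups of 5 samples, each read on its own Agilent mouse array with a single dye. The genotype is the labelled difference between the groups, the labels do not say whether the mice were littermates, and no mouse on a normal diet was arrayed.

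Growth hormone is released by the pituitary and binds the growth hormone receptor, Ghr, on hepatocytes. The receptor acts through the kinase Jak2, which phosphorylates the transcription factors Stat5a and Stat5b. Their targets in liver include Igf1, the circulating growth factor, Igfals, which holds Igf1 in a serum complex, and Socs2 and Cish, which dampen the signal. Male mice release growth hormone in widely spaced pulses and females more evenly, and many mouse liver genes are sex-biased for that reason. Hsd3b5, a 3-ketosteroid reductase, is a classical male-specific gene of mouse liver, as are many of the major urinary proteins of the Mup family. Serpina3k is a serine protease inhibitor secreted by hepatocytes.

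The sequences of the probes show what each value reads. Hsd3b5 was measured by a single 60-base probe on its RefSeq transcript NM_008295, at chr3:98414360-98414419 on the minus strand of build mm7, the build named in the file headers. The annotation of that build was not used here, so exon and untranslated parts are not given. It is printed with the probe of its neighbour Hsd3b4, whose liver values followed it most closely within the family, in lower case throughout.

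Hsd3b5 NM_008295: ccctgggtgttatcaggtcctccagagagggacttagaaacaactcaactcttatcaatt

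Hsd3b4 NM_008294: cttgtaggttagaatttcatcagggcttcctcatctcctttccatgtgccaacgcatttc

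The longest run of bases these probes share was 6, and 0 other probes on the array shared a run of 20 bases with the Hsd3b5 probe. The probes lie at different places of closely related transcripts, and transcript sequences were not used here, so reads of one family member by another member's probe remain uncertain. Many Mup genes are near-identical copies, and the 3 Mup1 probes are shown because of that. Capitals mark a run of 20 bases shared by 2 of them.

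Mup1 NM_031188: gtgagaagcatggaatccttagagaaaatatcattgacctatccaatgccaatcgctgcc

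Mup1 BC037152: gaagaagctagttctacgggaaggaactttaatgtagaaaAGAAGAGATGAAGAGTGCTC

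Mup1 AK011413: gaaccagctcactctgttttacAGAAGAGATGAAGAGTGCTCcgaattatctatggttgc

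Which Mup transcripts each probe reads was not checked, so a signal is not assigned to Mup1 alone. For Igf1, the brightest probe and the dimmest gave different answers below and are shown for that reason. Their positions on the plus strand of mm7 were chr10:87471884-87471943 for the brightest and chr10:87420848-87420907 for the dimmest, which lies 51036 bases closer to the start of the chromosome.

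Igf1 NM_184052: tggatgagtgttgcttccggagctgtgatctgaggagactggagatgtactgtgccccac

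Igf1 AK050118: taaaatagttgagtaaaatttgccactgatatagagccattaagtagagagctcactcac

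STAT5 binds the palindrome TTCNNNGAA, which reads the same on both strands. RefSeq promoters of build GRCm38.p6, from 250 bases before to 50 bases after a start, were held for 7 of the 10 genes, as 12 promoters. The motif was in 3 of the 12 promoters, and in 8.3% of all 32851 promoters of that length. The 3 belonged to Cish and Igfals. The windows of 30 bases around the motifs, with the motifs in capitals, were as follows, on the plus strand at chr9:107296654-107296683, chr17:24877597-24877626 and chr17:24878162-24878191.

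Cish: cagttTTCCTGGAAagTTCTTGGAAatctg

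Igfals first promoter: cgatctataatTTCTCAGAAaagaggctga

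Igfals second promoter: tctgccaggtgTTCCTAGAAgaggccctgg

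The Cish motifs began at its annotated start and 11 bases after it. The promoter held for Hsd3b5 had no match to these letters, which says nothing of binding elsewhere.

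Every level below is the log2 processed signal minus the array's 75th percentile, so 0 is the signal at that percentile and a step of 1 is a doubling. Apart from the ranking by brightness, levels of different probes were not compared with each other. The Cd44 probe served as the check of the labels: its level in liver was 0.48 ± 0.28 (SD, n = 5) in WT(HFD) and -3.74 ± 0.41 (n = 5) in CD44KO(HFD) mice, and in WAT 4.07 ± 0.37 and -0.51 ± 0.13. A second Cd44 probe fell likewise, and another was dim in both genotypes (0.20 in liver, adjusted p = 0.888). Liver arrays correlated with their group across probes at r of 0.981 to 0.989. WT(HFD) WAT replicate 1 stood apart, with r of 0.825 to 0.841 to its group and 89.5% of spots well above background, against 63.2% to 69.5% on the other WAT arrays. Its 5 epididymis markers averaged -1.97, against -7.72 to -7.24 on the other WT(HFD) WAT arrays. The WAT differences of Hsd3b5 and Ghr are given with and without this array. Other WAT differences and all tissue differences below include it, apart from the counts and ranges with 1 array left out. Liver and WAT arrays lay on different slides and were scanned on different days, so levels cannot be compared between tissues apart from that. In RNA from whole tissue, fewer cells of a type and less RNA per cell cannot be told apart.

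Hsd3b5 was higher in CD44KO(HFD) liver and differed widely among those mice. In WT(HFD) liver the levels were -4.80, -3.29, -3.17, -3.14 and -4.50 for replicates 1 to 5. In CD44KO(HFD) liver they were 0.11, 4.45, -2.90, 1.51 and 1.25. The 5 WT(HFD) values lay closer together than those of CD44KO(HFD), with replicates 1 and 5 below the other 3. Replicate 2 of CD44KO(HFD) was far above the rest, and replicate 3 of CD44KO(HFD) sat almost at the WT(HFD) level. The groups did not overlap, but the lowest CD44KO(HFD) array was only 0.24 above the highest WT(HFD) array. All 10 arrays were well above background, and in liver all CD44KO(HFD) arrays lay above all WT(HFD) arrays for 7.5% of the probes tested.

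**Figure D1:**
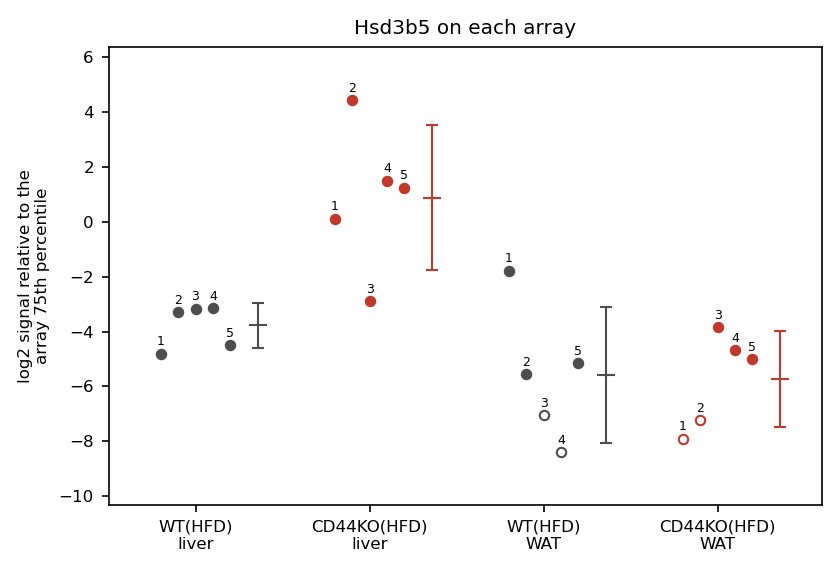
Level of Hsd3b5 (log2 signal relative to the array's 75th percentile) on each of the 20 arrays, by genotype and tissue. Points are arrays numbered by replicate, open points are spots not well above background, and bars give the mean ± SD of 5 arrays. The 5 WT(HFD) livers lie between -4.80 and -3.14 and the 5 CD44KO(HFD) livers are spread from -2.90 to 4.45.

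The mean of Hsd3b5 was -3.78 ± 0.81 (SD, n = 5) in WT(HFD) and 0.88 ± 2.65 (n = 5) in CD44KO(HFD) liver, a log2 difference of 4.66 (SE 1.10, 95% interval 2.23 to 7.10), or 25.3-fold. Among CD44KO(HFD) mice the levels spanned 7.35, a 163-fold range, against 1.67 among WT(HFD) mice. Of the 24688 probes tested in liver, 0 had a larger SD over the CD44KO(HFD) arrays than Hsd3b5, and the median SD was 0.187. Replicate 3 lay 3.01 below the next CD44KO(HFD) array. Without it the difference was 5.61, and without replicate 2 it was 3.77. Within each of the 3 liver slides, all of which held both genotypes, Hsd3b5 was higher in CD44KO(HFD), by 3.28 to 6.19.

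Hsd3b5 in WAT did not follow the genotype. The WT(HFD) levels were -1.78, -5.55, -7.05, -8.40 and -5.16, and the CD44KO(HFD) levels were -7.90, -7.23, -3.85, -4.69 and -5.00. Only 3 of 5 arrays of each genotype were well above background, so the remaining values have no order. The highest value was that of WT(HFD) WAT replicate 1, the array with epididymis markers. The log2 difference was -0.15 (SE 1.21, adjusted p = 0.958, limma), and 0.80 without that array (adjusted p = 0.716).

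Ghr, the receptor, was read by 5 probes. On the brightest probe, the liver levels were 4.98, 4.99, 5.70, 5.52 and 5.35 in WT(HFD) and 5.67, 5.73, 5.40, 5.82 and 5.63 in CD44KO(HFD) mice. The groups overlapped, with WT(HFD) replicates 1 and 2 the lowest. The difference of 0.34 (SE 0.15) did not pass the test (adjusted p = 0.146, limma). The other 4 probes of Ghr also had positive differences, of 0.46, 0.37, 0.95 and 0.74. Of the 5, 3 passed the threshold, all higher in CD44KO(HFD) liver: the second RefSeq probe (adjusted p = 0.0363) and the cDNA probes AK053579 (adjusted p = 0.0103) and AK034547 (adjusted p = 0.0353). In liver alone the second RefSeq probe was the brightest, with means of 5.75 in WT(HFD) and 6.21 in CD44KO(HFD), against 5.31 and 5.65. In liver 13.6% of all probes passed the threshold, with 7.85% higher and 5.75% lower in CD44KO(HFD).

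The STAT5 factors, which carry the signal to the nucleus, gave differences in opposite directions. Stat5a levels were 1.65, 1.63, 2.09, 1.23 and 1.42 in WT(HFD) and 0.61, 1.24, 1.03, 1.15 and 1.23 in CD44KO(HFD) liver. All 5 CD44KO(HFD) values were below the WT(HFD) mean, yet the groups met at 1.23 and 1.24. The difference of -0.55 (SE 0.17) was just outside the threshold (adjusted p = 0.0585). It was negative on each of the 3 slides, between -1.48 and -0.24. Stat5b levels were 2.84, 2.86, 2.96, 2.98 and 2.75 in WT(HFD) and 2.84, 3.21, 2.75, 3.04 and 3.08 in CD44KO(HFD) liver. The groups overlapped in part, with 3 CD44KO(HFD) values above the highest WT(HFD) value, and the difference was 0.11 (SE 0.10, 95% interval -0.11 to 0.32, adjusted p = 0.491). The other 2 Stat5b probes gave 0.12 and 0.39, neither past the threshold.

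Socs2 and Cish, the feedback inhibitors whose transcripts rise quickly after a pulse of growth hormone, varied more between mice of one genotype than between genotypes. Socs2 levels were -0.98, -0.90, -0.25, -0.71 and -1.99 in WT(HFD) and -0.42, -0.51, -1.58, -0.76 and -1.11 in CD44KO(HFD) liver, a difference of 0.09 (SE 0.32, adjusted p = 0.877). The second Socs2 probe was well above background on only 3 WT(HFD) and 1 CD44KO(HFD) liver arrays and is not read further. Cish levels were 2.61, 1.26, 1.73, 1.28 and 0.71 in WT(HFD) and 1.13, 0.67, 1.11, 1.68 and 2.78 in CD44KO(HFD) liver. A single mouse of each genotype was high, and the difference was -0.04 (SE 0.43, 95% interval -0.995 to 0.914, adjusted p = 0.961). The sign of this value for Cish changed when single arrays were left out.

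Igf1 and Igfals, the secreted products, had positive differences that did not pass the test on their brightest probes. Igf1 levels were 5.52, 5.67, 6.01, 6.23 and 5.98 in WT(HFD) and 6.06, 6.13, 5.79, 6.31 and 6.01 in CD44KO(HFD) liver, which overlap. The difference was 0.18 (SE 0.14, 95% interval -0.14 to 0.50, adjusted p = 0.423). The Igf1 probe NM_010512, which the array carries in 10 spots, gave 0.13 (adjusted p = 0.599). The dim cDNA probe AK050118 of Igf1 gave another result: -1.61, -1.99, -1.79, -1.05 and -1.14 in WT(HFD) and 0.53, -0.24, 0.39, -0.23 and 0.31 in CD44KO(HFD) liver. Here the groups did not overlap, as for 11.7% of all probes, and the difference was 1.67 (SE 0.22, adjusted p = 0.00646). Igfals levels were 2.18, 2.63, 2.68, 2.98 and 2.71 in WT(HFD) and 3.48, 3.67, 2.75, 3.82 and 3.05 in CD44KO(HFD) liver. Only CD44KO(HFD) replicate 3 fell within the WT(HFD) range, and the difference of 0.72 (SE 0.22, 1.65-fold) was just outside the threshold (adjusted p = 0.0523). Without that replicate it was 0.87 and passed (adjusted p = 0.0159). Over the alternatives its adjusted p ranged from 0.0159 to 0.351.

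Mup1 and Serpina3k, abundant hepatocyte products, were higher on average in CD44KO(HFD) liver, within the spread. Mup1 levels were 9.09, 9.62, 9.72, 9.65 and 9.30 in WT(HFD) and 9.65, 9.91, 9.51, 9.73 and 9.56 in CD44KO(HFD) liver. The difference was 0.20 (SE 0.13, adjusted p = 0.338), and 0.75 and 0.57 on the other Mup1 probes, also not past the threshold. No Mup1 spot was saturated. Serpina3k levels were 7.54, 8.15, 8.64, 8.51 and 7.99 in WT(HFD) and 8.57, 9.27, 8.09, 9.04 and 8.65 in CD44KO(HFD) liver. The difference was 0.56 (SE 0.26, adjusted p = 0.159), and 0.46 on the second Serpina3k probe.

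**Figure D2:**
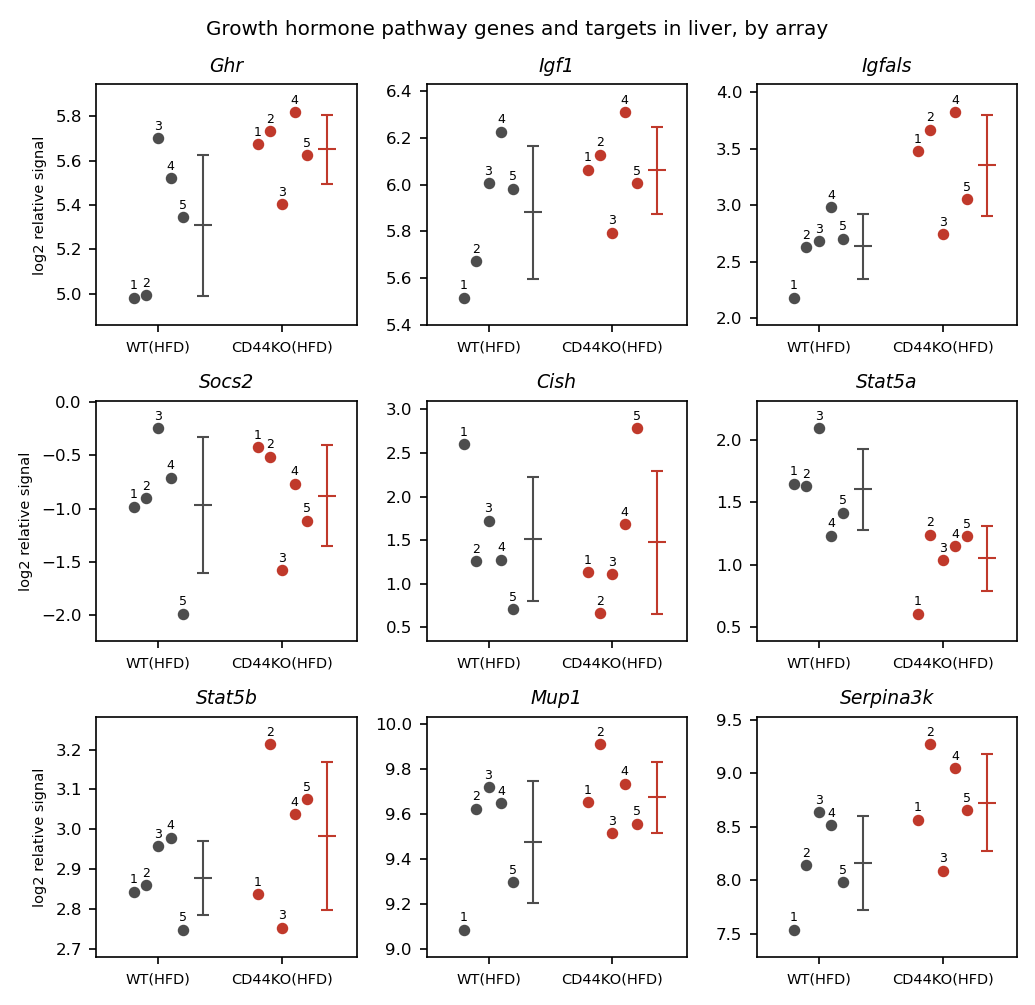
Liver levels (log2 signal relative to the array's 75th percentile, with a separate scale in each panel) of the 9 other genes on their brightest probes. Points are arrays numbered by replicate, and bars give the mean ± SD of 5 arrays. The groups overlap in all 9 panels, and CD44KO(HFD) replicate 3 is the lowest of its group in 7 of them.

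Across the 9 genes other than Hsd3b5, 0 passed the adjusted threshold in liver on their brightest probes, against 13.6% of all probes, and 3 had an unadjusted p under 0.05, against 32.2%. Of the 9 differences, 7 were positive and 2 negative, with a median of 0.18, beside a median of 0.08 over all probes tested in liver. Over all 21 probes of these 9 genes, 18 differences were positive and 4 probes were called, all higher. The calls at the edge moved with the processing. Igfals passed under quantile normalization, median scaling, a stricter filter, the slide block and array weights, and Stat5a under the stricter filter and array weights.

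**Figure D3:**
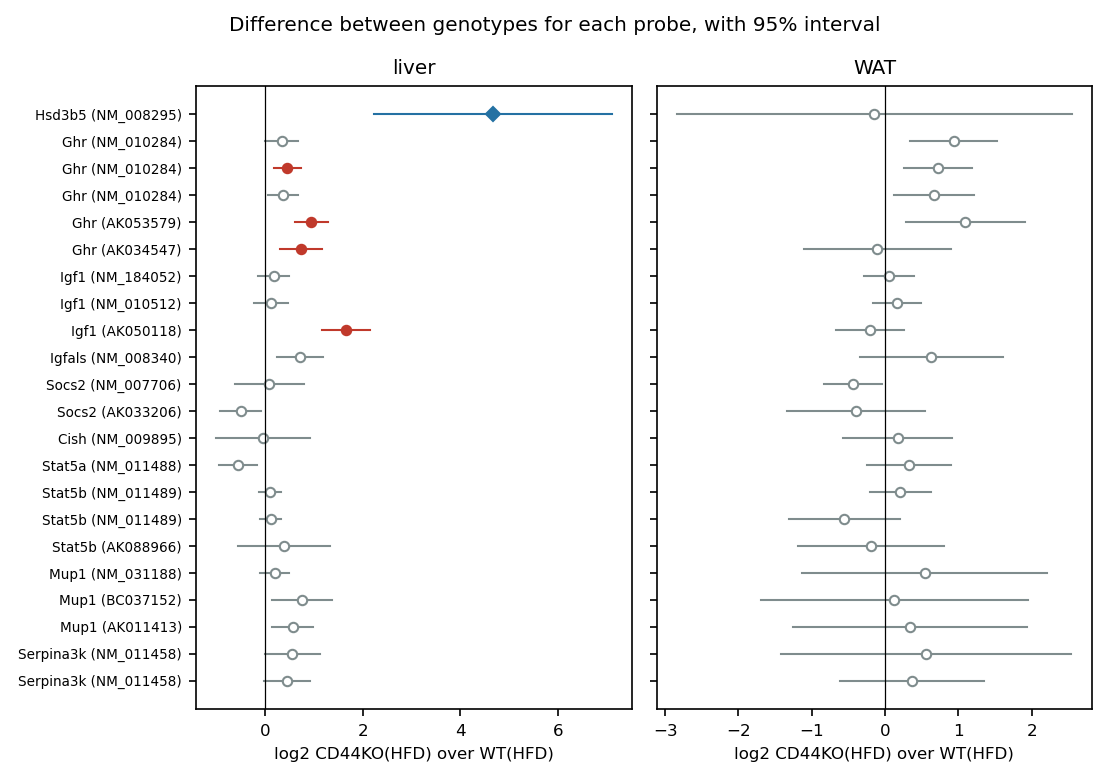
Log2 difference of CD44KO(HFD) over WT(HFD) for each of the 22 probes in liver and in WAT, with 95% intervals from limma. Filled red points passed an adjusted p of 0.05 and open points did not. The blue diamond is the liver value of Hsd3b5, a description only, and its interval is no test. In liver 4 probes of the other genes passed, 3 of Ghr and 1 of Igf1, and in WAT none did.

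Particular mice stood at the ends of the range for many of the genes. In CD44KO(HFD) liver, replicate 3 was the lowest array for 8 of the 10 genes, as for 30.2% of all probes, and replicate 2 the highest for 5, as for 23.1%. In WT(HFD) liver, replicate 1 was the lowest for 6 of the 10 genes, as for 31.6% of all probes. The hepatocyte markers also had WT(HFD) replicate 1 and CD44KO(HFD) replicate 3 as the lowest and CD44KO(HFD) replicate 2 as the highest: their mean over 10 genes was 7.37, 7.52, 7.75, 7.89 and 7.77 in WT(HFD) and 8.09, 8.14, 7.75, 8.11 and 7.87 in CD44KO(HFD) liver. All 10 hepatocyte markers had positive differences, of which 1 passed the test. T cell markers were lower in CD44KO(HFD) liver for 4 of 6 genes, and these 4 were called. Their array means were -2.54 to -1.70 in WT(HFD) and -3.23 to -3.00 in CD44KO(HFD). Markers of stellate cells and fibroblasts were lower for 7 of 7 genes, with 4 called and array means of 1.10 to 1.98 and 0.31 to 1.27. Macrophage markers were higher for 5 of 7 genes, with 1 called and array means of 0.16 to 1.78 and 1.25 to 2.57. Of adipocyte markers 0 of 4 were called. Over all probes tested in liver, 13.6% were called. The part of these cell types in the levels above was not tested.

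Over the 10 liver arrays, the deviations of Hsd3b5 from its genotype means were set against those of 12323 other genes. These were genes tested in liver on a probe matched to a symbol by accession, with a value on all 10 arrays. Genes tested only on other probes were not ranked. Of the ranked genes, the 5 most like Hsd3b5 were Fermt2, an integrin adaptor, Hsd3b4, Cited2, a transcriptional co-regulator, Mb21d2 and Ces4a, a carboxylesterase. Their Pearson r was 0.97, 0.95, 0.94, 0.94 and 0.93. The 3 least like it were Sult1c2, a sulfotransferase, Nfe2l2, the transcription factor of the oxidant response, and Mapre3, a microtubule-end protein, with r of -0.97, -0.97 and -0.96. Stat5b was in place 13 with r of 0.91 (Spearman rho 0.88) and Serpina3k in place 97 with r of 0.84 (rho 0.95). Next came Igfals (0.71), Mup1 (0.67), Socs2 (0.56), Igf1 (0.54), Ghr (0.47) and Stat5a (0.30), whereas Cish had r of -0.11. These are descriptions over 10 arrays, in which CD44KO(HFD) replicates 2 and 3 lie farthest out and share their array with every gene.

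The other genes of the pathway were taken from 10 lists that held 142 genes, of which 103 besides Hsd3b5 were tested in liver. Of these, 20 passed the threshold (19.4%), 16 higher and 4 lower in CD44KO(HFD), against 13.6% of all probes, 7.85% higher and 5.75% lower. Differences were positive for 61.3% of all probes tested in liver, called or not, which is the share to read the directions below against. The lists were chosen with earlier results known and share genes. When each liver array was left out in turn, the number of listed genes called ranged from 3 to 31, and it was 5 after normexp background correction. Hsd17b6 and Igfbp3 were among the few that stayed past the threshold in all 10 of those fits. Each was called under 8 of the 10 other settings of the processing.

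Hsd3b5 belongs to a family of steroid dehydrogenase genes. Of its other 6 members, all had positive differences under each scaling. Of these 6, 4 were called, beside 13.6% of all probes. Hsd3b1 (0.64, adjusted p = 0.0978) and Hsd3b7 (0.27, adjusted p = 0.223) were not. Hsd3b3 rose by 0.89 (SE 0.21, adjusted p = 0.0267), Hsd3b6 by 0.86 (SE 0.23, adjusted p = 0.0362) and Hsd3b2 by 0.91 (SE 0.25, adjusted p = 0.0415). Hsd3b4 repeated the uneven pattern of Hsd3b5, with levels of -1.95, -1.98, -1.09, -1.49 and -1.44 in WT(HFD) and 0.53, 4.43, -1.36, 1.55 and 1.49 in CD44KO(HFD) liver. Its replicate 2 was again far above the rest and its replicate 3 at the WT(HFD) level, and the difference was 2.92 (SE 0.84, adjusted p = 0.0467). The calls of these 4 genes were lost in 7 or 8 of the 10 fits that left out 1 array, and after normexp correction none of them passed.

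Male-biased liver genes other than Hsd3b5 had positive differences in 14 of 15 cases (61.3% over all probes), with a median of 0.26, and in 13 of 15 after quantile normalization or normexp correction. Of the 15, 3 rose past the threshold and 0 fell, beside 13.6% of all probes called. The organic anion transporter Slco1a1 had levels of -4.94, -1.77, -1.56, -0.37 and -5.40 in WT(HFD) and 1.001, 2.69, -0.74, 1.37 and 1.44 in CD44KO(HFD) liver. Only 3 of 5 WT(HFD) arrays were well above background, CD44KO(HFD) replicate 3 alone fell within the WT(HFD) range, and the difference was 3.96 (SE 1.01, adjusted p = 0.0316). Cyp7b1, an oxysterol hydroxylase, rose by 0.92 (SE 0.26, adjusted p = 0.0422) and Serpina1e, an antitrypsin gene, by 0.57 (SE 0.16, adjusted p = 0.0419). Slco1a1 kept its call in 3 of the 10 fits without 1 array, and Cyp7b1 and Serpina1e in 2.

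Female-biased genes did not pass in either direction. Of the 15 tested, 9 had positive and 6 negative differences, with a median of 0.38, and 0 were called, beside 13.6% of all probes. The lowest adjusted p values were those of Prlr, the prolactin receptor (0.58, adjusted p = 0.0669), Hao2, a peroxisomal oxidase (1.08, adjusted p = 0.067), Cyp39a1, an oxysterol hydroxylase (0.51, adjusted p = 0.0854), and Fmo2, a flavin monooxygenase (-0.80, adjusted p = 0.113). The difference between the male-biased and the female-biased list was not tested.

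**Figure D4:**
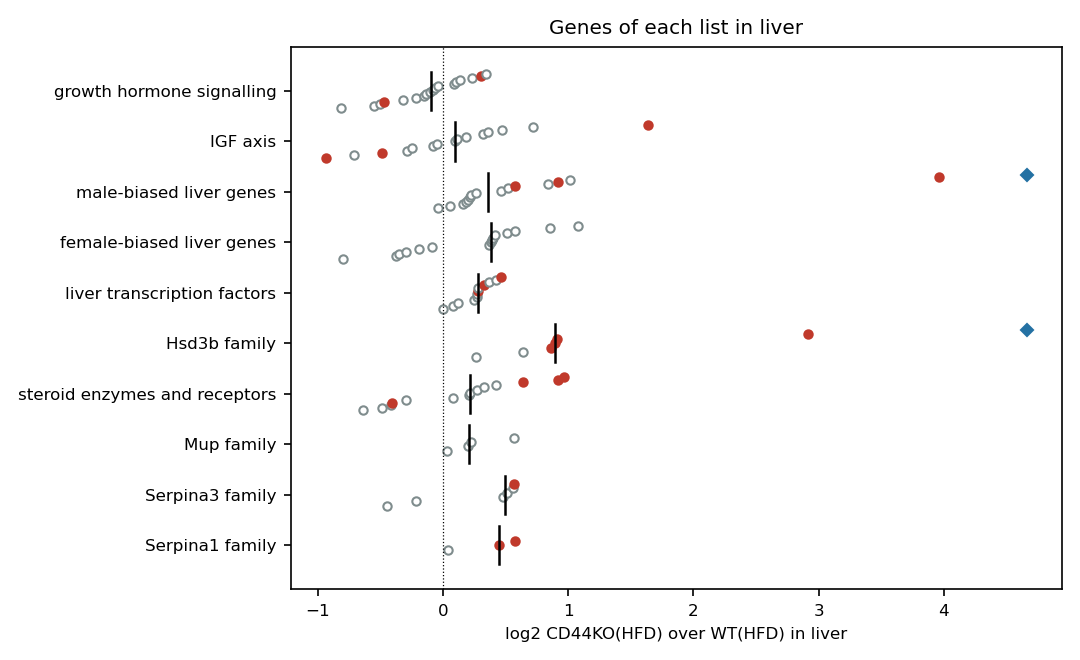
Log2 difference of CD44KO(HFD) over WT(HFD) in liver for the tested genes of 10 lists. Each point is a gene, filled red where its adjusted p was under 0.05, the blue diamond is Hsd3b5, and the vertical bar is the list's median. The medians run from -0.09 for growth hormone signalling to 0.89 for the Hsd3b family with Hsd3b5 included.

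Among 18 tested genes of growth hormone signalling, Irs1, an adaptor of the insulin and growth hormone receptors, rose by 0.31 (SE 0.08, adjusted p = 0.0321). Irs1 kept its call in 4 of the 10 fits without 1 array and under 5 of the 10 other settings. The adaptor Sh2b1 had 0.23 (adjusted p = 0.0549) and the receptor Sirpa -0.81 (adjusted p = 0.0567). The list holds Ghr, Stat5a, Stat5b, Socs2 and Cish as well. Of the 18 differences 6 were positive and 12 negative, with a median of -0.09.

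In the IGF axis, 3 of 15 tested genes were called (20%), beside 13.6% of all probes. They were Igfbp2, Igfbp3 and Igfbp7. Igfbp2 levels were 3.42, 4.16, 4.71, 4.80 and 4.69 in WT(HFD) and 6.37, 6.76, 4.97, 5.97 and 5.88 in CD44KO(HFD) liver. The groups did not overlap, as for 11.7% of all probes, and CD44KO(HFD) replicate 3 was again the lowest of its group. Igfbp2 rose by 1.64 (SE 0.35, adjusted p = 0.0204). Igfbp3, the main carrier of Igf1 in the complex with Igfals, had levels of -0.04, 0.14, 0.84, -0.03 and 0.36 against -0.78, -0.90, -0.72, -0.81 and -0.19. Igfbp3 fell, also without overlap (-0.93, SE 0.19, adjusted p = 0.0179). Under the other settings its difference ran from -0.95 to -0.51, with adjusted p up to 0.299. It was not called with its probes averaged or with all 20 arrays in a fit. Igfbp7 fell by 0.49 (SE 0.13, adjusted p = 0.0405), a call kept in 2 of the 10 fits without 1 array. Hepatic Igfbp3 and Igfbp7 are made largely outside hepatocytes. Of the markers of other cells, those of stellate cells and fibroblasts were lower for 7 of 7 genes and those of T cells for 4 of 6. Macrophage markers were higher for 5 of 7, and endothelial markers were not examined. The part of these cells was not tested.

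**Figure D5:**
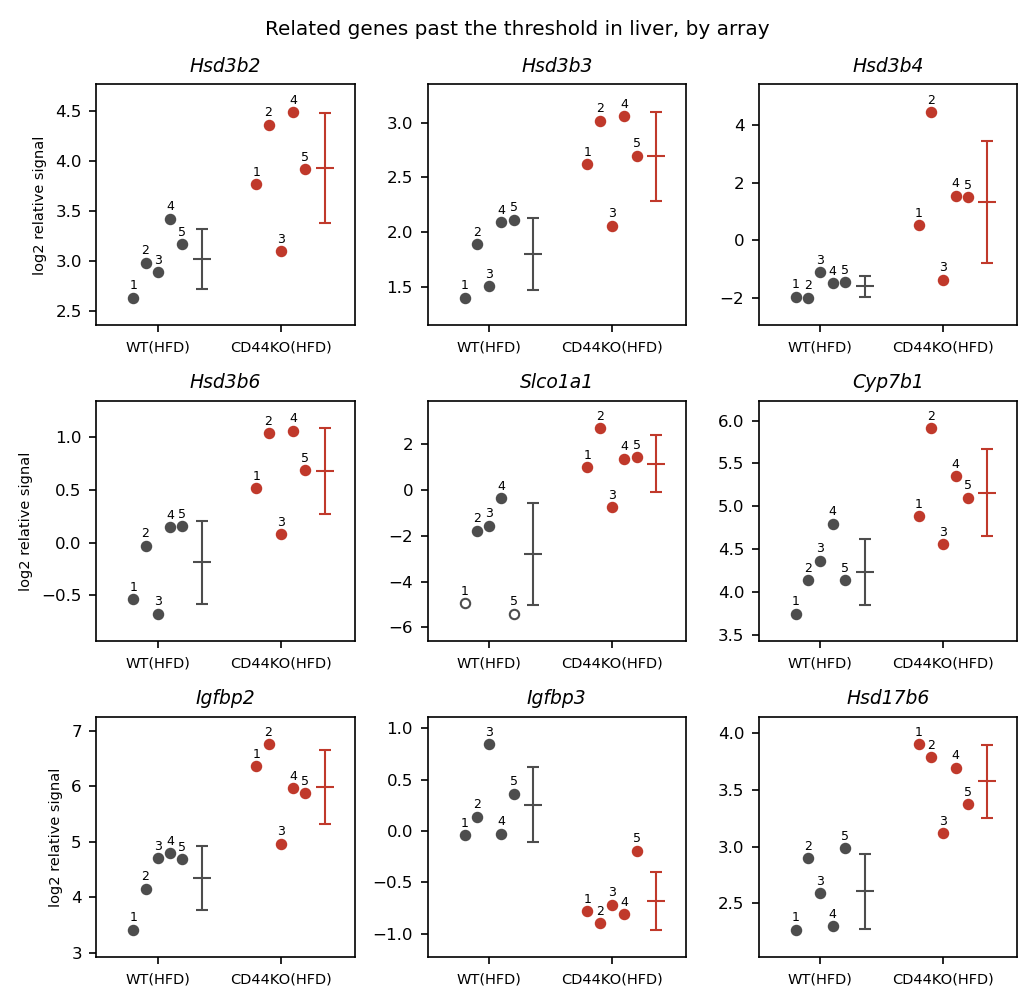
Liver levels (log2 signal relative to the array's 75th percentile, with a separate scale in each panel) of 9 related genes past the threshold. Points are arrays numbered by replicate, open points are spots not well above background, and bars give the mean ± SD of 5 arrays. Hsd3b4 and Slco1a1 show the widest spread, and CD44KO(HFD) replicate 3 is the lowest of its group for the 4 Hsd3b genes, Slco1a1, Cyp7b1, Igfbp2 and Hsd17b6.

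Of 12 liver transcription factors, 11 had positive differences (61.3% over all probes), and 3 were called, all higher, beside 13.6% of all probes called. Nr1h4, the bile acid receptor, rose by 0.46 (SE 0.10, adjusted p = 0.0219), Foxa3 by 0.33 (SE 0.09, adjusted p = 0.035) and Cebpa by 0.28 (SE 0.08, adjusted p = 0.0384). Rxra, the partner of many nuclear receptors, had 0.37 (adjusted p = 0.0656). Foxa3 kept its call in 3 and Cebpa in 1 of the 10 fits without 1 array. Of 14 steroid enzymes and receptors, Hsd17b6, a steroid and retinol dehydrogenase, rose by 0.97 (SE 0.19, adjusted p = 0.0167) and Hsd11b1, which regenerates active glucocorticoid, by 0.64 (SE 0.13, adjusted p = 0.0185). Srd5a3, a polyprenol reductase, fell by 0.41 (SE 0.10, adjusted p = 0.0253), a call kept in 3 of the 10 fits without 1 array.

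The calls among relatives of Mup1 and Serpina3k stand beside the 13.6% of all probes called in liver. The 4 Mup genes tested, out of 22 listed, had differences of 0.57 for Mup5, 0.20 for Mup1, 0.22 for Mup3 and 0.03 for Mup4, and 0 were called. The value of Mup4 changed sign after quantile normalization and normexp correction. In the Serpina3 family 1 of 6 was called, Serpina3c (0.57, SE 0.15, adjusted p = 0.0369), beside Serpina3n (0.51, adjusted p = 0.0562) and Serpina3m (0.48, adjusted p = 0.12). With Serpina3k, 4 of the 6 differences were positive, and those of Serpina3g (-0.45, adjusted p = 0.431) and Serpina3f (-0.22, adjusted p = 0.7) were negative. In the Serpina1 family 2 of 3 were called, Serpina1e and Serpina1b (0.45, SE 0.13, adjusted p = 0.0453), whereas Serpina1d had 0.04 (adjusted p = 0.849) and changed sign after quantile normalization. Serpina3c kept its call in 3 and Serpina1b in 2 of the 10 fits without 1 array. Whether a probe of these families reads more than 1 gene was not checked against transcript sequences.

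In WAT, 0 of the 10 genes passed the threshold, where 0.0398% of all probes did, and 2 had an unadjusted p under 0.05, against 14.9% of all probes. These were Ghr and Socs2. Ghr levels were 3.91, 5.09, 4.90, 5.17 and 4.98 in WT(HFD) and 5.99, 6.03, 5.97, 5.36 and 5.40 in CD44KO(HFD) WAT. The groups did not overlap, as for 6.18% of all probes, and the difference was 0.94 (SE 0.27, 1.91-fold, adjusted p = 0.199). WT(HFD) replicate 1 was far below the rest, and without it the difference of Ghr was 0.71 (adjusted p = 0.147). It was higher on both slides that held both genotypes, by 0.98 and 1.17. The second RefSeq probe and AK053579 of Ghr did not overlap either, with differences of 0.72 and 1.09, whereas AK034547 had -0.11. The adipocyte markers are given beside Ghr: their mean over 8 genes was 4.03, 5.02, 4.82, 4.82 and 5.11 in WT(HFD) and 5.97, 5.86, 5.01, 5.18 and 5.198 in CD44KO(HFD) WAT. The median of their differences was 0.73. For the markers and for Ghr, WT(HFD) replicate 1 was the lowest and CD44KO(HFD) replicates 1 and 2 the highest. However, CD44KO(HFD) replicate 3 was close to these 2 for Ghr, at 5.97, and the lowest of its group for the markers. T cell markers had a median difference of -1.20 over 6 genes, with array means of -3.51 to -0.88 in WT(HFD) and -4.18 to -2.86 in CD44KO(HFD) WAT. None of these markers was called in WAT, and their part in the Ghr values was not tested. Socs2 levels were -0.64, -1.02, -0.95, -0.92 and -1.09 in WT(HFD) and -1.33, -0.96, -1.81, -1.25 and -1.47 in CD44KO(HFD) WAT, a difference of -0.44 (SE 0.18, adjusted p = 0.299).

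The WAT levels of Mup1 and Serpina3k varied far more between mice than in liver. Mup1 levels were 2.62, 4.87, 1.42, 3.28 and 1.44 in WT(HFD) and 2.59, 1.57, 4.65, 3.77 and 3.74 in CD44KO(HFD) WAT. Serpina3k levels were 0.08, 2.02, -2.11, -0.22 and -2.66 in WT(HFD) and -1.02, -1.41, 1.53, 0.45 and 0.32 in CD44KO(HFD) WAT. The arrays high in one were high in the other, and also in the hepatocyte markers, whose means were -0.42, 0.37, -3.44, -0.22 and -3.12 in WT(HFD) and -1.15, -1.79, 0.82, -0.04 and -0.20 in CD44KO(HFD) WAT. The part of these transcripts in the values was not tested. The differences between genotypes were 0.54 for Mup1 (SE 0.75, adjusted p = 0.724) and 0.55 for Serpina3k (SE 0.89, adjusted p = 0.76). For Stat5a, Stat5b, Igf1, Igfals and Cish the WAT differences were 0.32, 0.21, 0.06, 0.63 and 0.17, with adjusted p of 0.548, 0.592, 0.859, 0.502 and 0.804. The other Stat5b probes had negative values in WAT, -0.56 and -0.19. The median over all probes in WAT was -0.06, and 0.42 after median scaling, so small differences in WAT depend on the scaling.

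An interaction term over the 20 arrays asked whether the effect of the genotype differed between liver and WAT. It treats all 20 arrays as independent, and the labels do not say whether liver and WAT of one number came from the same mouse. Of the 9 genes other than Hsd3b5, 0 passed the threshold, against 1.15% of all probes, and 1 had an unadjusted p under 0.05, against 15.8%. That gene was Stat5a, with -0.55 in liver and 0.32 in WAT, a difference of -0.88 (SE 0.32, adjusted p = 0.179). For Hsd3b5 the term was 4.81 (SE 1.74), as a description. The Igf1 probe AK050118, with 1.67 in liver and -0.21 in WAT, differed between the tissues by 1.87 (SE 0.31, adjusted p = 0.00961). Igfbp2, with 1.64 in liver and -1.73 in WAT, differed by 3.37 (adjusted p = 0.0201). With liver and WAT arrays of one genotype and number as a random block, these adjusted p were 0.0097 and 0.0204, and 0 of the 9 genes passed.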

How the data were processed

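RNA of liver and WAT was labelled with Cy3 and hybridised to 20 single-dye Agilent arrays. The authors deposited the processed intensity of each spot, which Feature Extraction 9.5.3.1 had corrected for trends within the array and not scaled between arrays, with the mean and background intensity and marks for spots above background (13 times its standard deviation) or outlying. The deposited series table held the same values on 20 of 20 arrays. The study names no normalization or test for the arrays. Processed signals were put on the log2 scale, without outlier spots. From these the 75th percentile of the array's 43379 spots other than controls was subtracted, and repeated spots of a probe were averaged. A probe was tested when at least 3 of the 5 arrays of any group had it well above background: 24688 in liver, 27652 in WAT and 28988 for the interaction. limma 3.58.1 (lmFit, eBayes) in R 4.3.3 was used, with statmod 1.5.0, Benjamini-Hochberg adjustment over all probes tested and a threshold of 0.05. Symbols were updated by accession for 22951 of 41174 probes.

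The 10 genes and the lists were chosen with earlier results of these data known. Named were the 10 genes on their brightest probes, Cd44, and up to 4 genes of each list with the lowest adjusted p in liver. Also named were the 5 genes most and 3 least correlated with Hsd3b5, of those ranked. Genes named only for probes that disagreed, or in counts of 5 or fewer, were added after their values were seen. Some results of the listed genes are not reported here. Alternatives were normexp correction (offset 50), quantile and median scaling, other filters, replicate and slide blocks, a fit of all 20 arrays, array weights, probe averages and each array left out. On simulated data, 73% of 2-fold and 93% of 4-fold changes were recovered in liver over 24662 probes, and 35% and 55% in WAT over 27507. The simulated noise was independent between probes, and far fewer probes were changed than were called in liver. These shares may therefore not hold for the real arrays. The 5 arrays per group limit the precision, and the labels do not say that replicates pair across groups, so p-values measure the spread between these samples.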

Additional observations from a re-analysis of the deposited data

Results flagged for a closer look

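Igfbp2 differed between tissues, with CD44KO(HFD) over WT(HFD) changes that differed by 3.37 on the log2 scale, and so did the Igf1 probe AK050118, by 1.87. Both values include WT(HFD) WAT replicate 1, the array with epididymis markers. Single arrays lay far from the other 4 of their group for 6 of 120 groups examined, and chance alone sets apart about 1 in 20. They were Ghr in WT(HFD) WAT, with replicate 1 at 3.91, and in liver Irs1 in CD44KO(HFD) replicate 3 (2.09), Igfbp3 in CD44KO(HFD) replicate 5 (-0.19), Fmo2 in WT(HFD) replicate 4 (-0.44), Cebpa in CD44KO(HFD) replicate 4 (5.15) and Nfe2l2 in WT(HFD) replicate 1 (4.22).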

How the results depend on the processing

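The liver difference of Hsd3b5 was between 3.66 and 4.76 under the other settings run, and between 3.77 and 5.61 with 1 array left out. Of the other 9 genes, 0 were called in liver. The number was 1 under quantile normalization (Igfals), median scaling (Igfals) and the slide block (Igfals), 2 under the stricter filter and array weights (Igfals and Stat5a) and 2 with probes of a gene averaged (Ghr and Igf1), and 0 to 2 with 1 array left out. In WAT it was 1 with all 20 arrays in a fit (Ghr) and 2 with array weights (Ghr and Socs2), and 0 without any single array. For the tissue difference it was 1 with array weights (Stat5a) and 0 without any single array. Listed genes other than Hsd3b5 called in liver numbered 20, but 5 with normexp correction, 5 without a filter, 6 with the replicate block and 2 with all 20 arrays in a fit. They numbered 7, 3, 10, 23 and 12 without WT(HFD) liver replicates 1 to 5 and 4, 8, 31, 5 and 7 without CD44KO(HFD) liver replicates 1 to 5. All probes called in liver fell from 3358 to 641 with normexp correction (216 higher and 425 lower, against 1938 and 1420), 1027 without a filter, 1329 with the replicate block and 723 with all 20 arrays, and ran from 858 to 4647 with 1 array left out. In WAT 11 probes were called, with 3 to 5292 under the other settings. Same-numbered deviations of the 2 genotypes correlated at -0.04 to 0.42 in liver and -0.21 to 0.09 in WAT. These values cannot decide whether the replicate numbers pair the samples, and in liver some same-numbered arrays also shared a slide. Liver and WAT arrays of one number correlated at -0.20 to 0.14 over 10 pairs, and a random block for them, chosen after seeing the data, gave 329 calls over all probes for the tissue difference, against 334 without it.

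Signs changed for small differences, and the cause was not tested. In liver these were Cish with array weights (0.36) and from -0.37 to 0.23 with 1 array left out, Socs2 with averaged probes, of which the second was dim (-0.20) and from -0.17 to 0.27, Stat5b with normexp correction (-0.0019), Mup4 with normexp correction (-0.077) and quantile normalization (-0.15) and from -0.067 to 0.10, and Serpina1d with the same settings (-0.068 and -0.0526) and from -0.034 to 0.12. In WAT these were Hsd3b5 with quantile normalization (0.37), median scaling (0.34), the slide block (0.30) and array weights (1.55) and from -0.85 to 0.80, Cish with array weights (-0.23) and from -0.036 to 0.37, Igf1 with quantile normalization (-0.11) and from -0.0060 to 0.16, Socs2 with median scaling (0.043) and Stat5b with averaged probes (-0.18).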
